A study of Mus musculus with 64 samples.

Results

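Collagen chains are the genes whose symbol has the form Col, a number, a and a number, each of which encodes 1 α chain of a collagen. In a series on mice with the scat mutation of Rasa3, 44 of the 26286 genes in the deposited table of normalised counts carry such a symbol, and all 44 are described here. They fall into 8 classes: 11 fibrillar chains, 6 type IV chains of basement membranes, 6 type VI chains of beaded filaments, 4 short chain and anchoring chains, 9 fibril-associated chains, 4 transmembrane chains, 2 multiplexins and 2 others. RNA was sequenced from whole bone marrow and whole spleen and from 2 flow-sorted progenitor populations of each tissue, which gives 6 populations. MEP are megakaryocyte-erythroid progenitors. SMP, the stem and myeloid progenitors, carry Kit and CD34 and little CD16/32, and lack lineage markers and Sca. Stem cells cannot be told from common myeloid progenitors in that gate, because BALB mice express little Sca1.

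All mutant mice were CbyJ.Cby-Rasa3(scat)/Llp scat/scat homozygotes, and the WT (+/+) mice were their littermates. The mutation is carried in every cell of the mouse, so an effect in a sorted cell is not separated from effects of its surroundings. Rasa3 encodes a protein that switches off the small GTPases Ras and Rap1, and scat homozygotes pass through anemic crisis and partial remission. Crisis mice (3 mice, 18 libraries) and young WT mice (7 mice, 18 libraries) were 23 to 28 days old. Remission mice (5 mice, 17 libraries) and older WT mice (3 mice, 10 libraries) were 32 to 58 days old, so that remission differs from crisis in age as well as in state. The labels name the mouse of each library, and the same 3 crisis mice, 2608, 2629 and 2953, are replicates 1, 2 and 3 of crisis in every population. Replicates in a group are therefore separate mice, while most populations share mice. The main exception is spleen SMP, whose 3 young WT mice gave no other library. In each comparison of that group with another young WT population the mice and the population therefore cannot be told apart. This also holds for the young WT side of the test of crisis effects between SMP of spleen and bone marrow. Older WT mouse 2822 and remission mice 2866 and 2868 gave spleen SMP alone, and young WT mouse 2955 whole marrow alone.

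Collagen chains wind together as trimers, and most are secreted into the matrix. Types I, II, III, V, XI, XXIV and XXVII build fibrils, type IV builds the network of basement membranes, and type VI forms beaded filaments. In bone marrow, type I collagen is the protein of bone made by osteoblasts and stromal cells, and types II, IX, X and XI belong to cartilage. In spleen, reticular fibres of type III collagen and basement membranes support the blood spaces. Blood progenitors are better known for binding collagens, through integrins and other receptors, than for making them.

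Values below are normalised counts as the authors deposited them, rescaled so that the libraries of all populations share 1 scale, and are listed by replicate. Levels of different genes are compared only per kb of transcript. Differences are on the log2(value + 1) scale, which understates the change of low genes, and come with their standard error (SE) and a Benjamini-Hochberg adjusted p from limma, two-sided, over all genes tested. Genes with a mean of at least 10 in the libraries of a fit were tested, and a gene is called at an adjusted p under 0.05. An exact test of 3 against 3 mice cannot go below 0.1, so no such test was made. Groups of 3 often do not overlap. In crisis against young WT, 58.2% of all genes tested did not in whole spleen and 50.9% in spleen SMP. A lack of overlap is therefore given as a description only.

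The 63 libraries that the labels place in a group and 1 that they do not differ in depth: the normalised counts of a library sum to between 33.6 and 107.6 M, with a median of 50.6 M, and between 16413 and 19940 genes lie above 0. A single read was worth 0.72 to 3.46 normalised counts, so values under 10 rest on a few reads. Rasa3 was lower in crisis than in young WT in whole spleen (log2 difference -2.19, adjusted p = 0.029) and in SMP of bone marrow (-0.38, adjusted p = 0.0315) and of spleen (-0.95, adjusted p = 0.0283) and was not called in the other 3 populations. As the mutation changes the protein, the level of Rasa3 does not check the genotype. Some libraries stand apart. The whole marrow of mice 2658 (young WT replicate 1), 2726 (remission replicate 1) and 27265 (older WT replicate 1) gave 8097, 5941 and 6502 counts of Col1a1, against 25554 to 113517 in the other 8, and their 12 markers of mesenchymal stroma and bone summed to 1833, 2466 and 1952, against 6844 to 19692. The whole spleen labelled remission of mouse 2726 also stands apart from its group: the 5 MEP and erythroid markers summed to 32414, 435584 and 618871 counts in the 3 spleens labelled remission, mouse 2726 first and below each of the 3 young WT spleens (138843 to 169029). In whole marrow these markers summed to 81520, 161955 and 211100 in the 3 libraries labelled remission, mouse 2726 again first, and to 180101 and 91297 in the libraries labelled older WT of mice 27265 and 2761. The whole spleen of mouse 27265 has labels that contradict each other, entered no comparison and held a sum of 301725. By these sums the whole marrow of both mice and the whole spleen of mouse 2726 go against their labels, and whether the 2 mice were exchanged was not tested. The labels were kept, so values of remission and older WT carry this doubt. Among the named chains followed over the alternatives, each whose call or sign changes without these mice is given both ways.

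In young WT mice, 38 of the 44 chains reached 10 counts in all 3 libraries of at least 1 population, and 11 did so in all 6: Col1a2, Col4a1, Col4a2, Col5a1, Col7a1, Col9a3, Col11a2, Col17a1, Col18a1, Col20a1 and Col26a1. Whole bone marrow held the most, 36 of 44 (81.8%, against 56.7% of all genes), followed by whole spleen with 25 (56.8% against 57.0%). The sorted cells held fewer: 16 chains in MEP of bone marrow (36.4% against 51.1%) and 13 in MEP of spleen (29.6% against 49.0%), and 19 in SMP of bone marrow (43.2% against 54.3%) and 15 in SMP of spleen (34.1% against 54.1%). A further 18 chains reached the level in whole tissue only, among them the cartilage chains Col2a1, Col9a1, Col9a2, Col10a1 and Col11a1, the reticular fibre chain Col3a1 and 5 of the 6 type VI chains. Of all 42 sorted libraries, in any state, none held 10 counts of Col4a4, Col4a6, Col6a2, Col6a3, Col6a5, Col8a1, Col9a1, Col9a2, Col11a1, Col13a1 or Col24a1. No young WT population reached the level for 6 chains, Col4a3, Col4a4, Col4a5, Col4a6, Col6a6 and Col13a1, and Col4a4 stayed under 10 in all 63 assigned libraries. Type IV collagen of young WT was thus represented by Col4a1 and Col4a2 in every population, and the chains best known from kidney basement membranes, Col4a3 to Col4a5, were low. In crisis Col4a3 reached 10 counts in all 3 libraries of whole spleen and of both MEP populations, with 15.8, 19.1 and 37.1 in spleen MEP, where neither Col4a1 nor Col4a2 did.

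**Figure D1:**
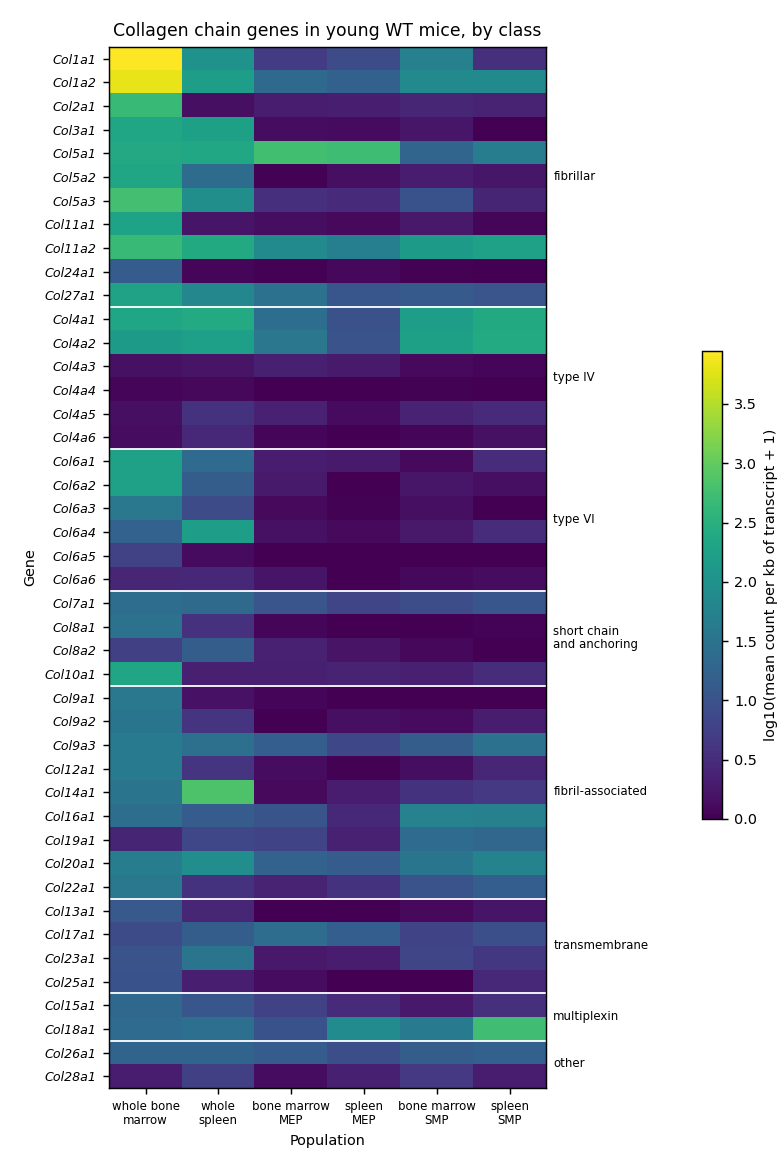
Mean level of each of the 44 collagen chain genes in young WT mice (3 libraries per population), as log10 of the rescaled count per kb of transcript + 1, with populations in columns and genes in rows grouped by class. Col1a1 and Col1a2 are brightest in whole bone marrow, Col14a1 in whole spleen, Col5a1 in MEP, Col4a1 and Col4a2 in bone marrow SMP and Col18a1 in spleen SMP.

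Collagen transcripts made up a small part of every library. Over all states they took 0.027 to 0.385% of the counts in whole bone marrow (median 0.145%), 0.00989 to 0.0303% in whole spleen (median 0.0154%) and 0.00609 to 0.0223% in the 42 sorted libraries. Type I collagen, Col1a1 and Col1a2 together, took 52.6 to 84.9% of the collagen counts in whole bone marrow (median 77.2%). Its median part was 9.32% in whole spleen, 6.86 and 3.43% in SMP of marrow and spleen, and 3.53 and 1.84% in MEP. In each of the 11 marrow libraries type I chains thus held most of the collagen counts, and the highest part in any other population was 19.3%, in bone marrow SMP.

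In whole bone marrow of young WT mice, the type I chains led per kb of transcript. Col1a1 stood at 8843 ± 9219 counts per kb (SD, n = 3) and Col1a2, its partner in type I collagen, at 6654 ± 6771. The type V chain Col5a3 (579 ± 85.9), the type XI chain Col11a2 (476 ± 338) and Col2a1, the chain of cartilage collagen (457 ± 152), followed and did not differ from each other beyond their spread. The SD of Col1a1 was larger than its mean because the 3 libraries held 8097, 113517 and 35701 counts, and replicate 1 is the low library of mouse 2658. Col3a1 behaved alike, with 134, 2104 and 1302 counts, whereas Col5a3 was even, with 3424, 4114 and 3083.

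Whole spleen had another order. Col14a1, a fibril-associated chain found on type I fibrils of soft tissues, led with 694 ± 225 counts per kb (SD, n = 3). It was followed by Col4a1 (261 ± 213), Col11a2 (249.8 ± 58.9), Col5a1 (219.8 ± 20.4) and Col3a1 (174 ± 139), which overlapped within their spread. In a fit of both whole tissues, 14 of 41 chains tested differed between spleen and marrow of young WT mice, 2 higher and 12 lower in spleen, where 13% of all genes tested were called (5.28% higher and 7.74% lower). Col14a1 held 2474, 4530.0 and 4821 counts in spleen and 117, 234 and 204 in marrow (log2 difference 4.41 ± 0.68 SE, adjusted p = 3.42e-04). Col6a4, a type VI chain, held 1216, 1016 and 1227 in spleen and 123, 127 and 106 in marrow (log2 difference 3.27 ± 0.77 SE, adjusted p = 0.00865). These were the only 2 chains called higher in spleen.

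The 12 chains lower in spleen were mostly those of cartilage and bone. Col2a1 held 0, 0 and 6.74 counts in spleen against 1560.1, 3113 and 2323 in marrow, so that the spleen level lay at the limit of detection. Col11a1 (-8.28, adjusted p = 2.09e-04), Col10a1 of hypertrophic cartilage (-6.96, adjusted p = 0.0137) and the type IX chains Col9a1 (-5.76, adjusted p = 1.18e-04) and Col9a2 (-3.91, adjusted p = 0.0114) were lower as well. Col1a1 held 74.8, 775 and 1037 counts in spleen (log2 difference -6.35 ± 1.37 SE, adjusted p = 0.00463), and Col1a2 followed it (log2 difference -5.39 ± 1.32 SE, adjusted p = 0.011). Even the low marrow library had more Col1a1 than any of the 3 spleens. Col6a5 (-3.64), Col22a1 (-3.53), Col24a1 (-5.41), Col12a1 (-4.69) and Col5a3 (-2.70) complete the list, the last 3 with adjusted p values of 0.028, 0.0321 and 0.0434. Leaving out 1 library at a time gave 8 to 13 chains called in place of 14. Col10a1 was lost without marrow replicate 2 or 3 or spleen replicate 3 (adjusted p 0.0519 to 0.0554), Col1a2 without marrow replicate 2 or spleen replicate 1 (0.0632 and 0.071) and Col9a2 without spleen replicate 1 (0.0667). In whole tissue, fewer cells of a type and less RNA per cell cannot be told apart. Markers of mesenchymal stroma and bone moved with these chains as a sum, though not each of them. Their 12 genes summed to 1833 to 19692 in young WT marrow and 509 to 1807 in spleen. Ibsp, Sp7, Bglap and Adipoq were under 10 in every young WT spleen. Ccl19, Tcf21 and Tlx1 were under 10 in every young WT marrow and not in every young WT spleen. The part of these markers in the result was not tested.

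Most of the marrow chains tested were lower in SMP. Between SMP and whole bone marrow of young WT mice, 29 of 39 chains tested were called (58.2% of all genes tested), 28 lower in SMP and 1 higher (32.2% and 25.9% of all genes). All 11 fibrillar chains were lower in SMP, as were the 5 type VI chains and the 4 short chain and anchoring chains tested. Col6a1 stood at 0, 3.001 and 0 counts in SMP and 138, 1395 and 695 in marrow (log2 difference -8.33 ± 1.11 SE, adjusted p = 3.92e-06). Col2a1 stood at 13.5, 5.75 and 6.61 counts in SMP (log2 difference -7.95 ± 0.95 SE, adjusted p = 1.35e-06), and Col9a1 was listed at 0 in all 3 SMP libraries. The exception was Col19a1, a fibril-associated chain, with 62.02, 108 and 119 counts in SMP and 12.6, 3.73 and 3.95 in marrow (log2 difference 3.78 ± 0.70 SE, adjusted p = 1.37e-04).

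In spleen, 17 of 30 chains tested differed between SMP and whole tissue (37.6% of all genes tested), 14 lower in SMP and 3 higher (22.1% and 15.5% of all genes). Col14a1, the leading chain of whole spleen, stood at 45.6, 10.01 and 3.52 counts in SMP (log2 difference -8.16 ± 0.92 SE, adjusted p = 6.14e-06). Col3a1 was listed at 0 in all 3 spleen SMP libraries, and Col6a4 held 31.6, 16.3 and 0 counts there (log2 difference -7.12 ± 1.05 SE, adjusted p = 6.57e-05). Col18a1, a multiplexin of vascular basement membranes whose end fragment is endostatin, was higher in SMP, with 1828, 2888 and 3106 counts against 135, 85.01 and 156 in whole spleen (log2 difference 4.38 ± 0.53 SE, adjusted p = 1.24e-05). Col22a1, a fibril-associated chain of tissue junctions, was also higher (log2 difference 2.42 ± 0.51 SE, adjusted p = 0.00136), and so was Col16a1 (log2 difference 2.195 ± 0.77 SE, adjusted p = 0.0347). For Col16a1 the counts were 399, 257 and 144 in SMP and 16.1, 89.4 and 99.7 in whole spleen.

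MEP and SMP had different leading chains. In bone marrow the same 3 young WT mice gave both, and in spleen different mice did. Col5a1, the type V chain that starts type I fibrils, led in MEP with 558 ± 139 counts per kb in bone marrow and 531 ± 153 in spleen (SD, n = 3), followed in bone marrow MEP by Col11a2 (72.5 ± 19.4) and in spleen MEP by Col18a1 (78.7 ± 61.7). In bone marrow the remaining leaders were Col4a2 (35.7 ± 18.5), Col27a1 (29.2 ± 23.3) and Col4a1 (25.7 ± 16.6), and in spleen Col11a2 (50.3 ± 6.55), Col1a2 (15.6 ± 12.3) and Col17a1, the transmembrane chain of hemidesmosomes (13.9 ± 5.87). In bone marrow SMP the type IV chains led, Col4a2 with 174 ± 7.63 and Col4a1 with 159.7 ± 4.56, ahead of Col11a2 (141 ± 20.98), Col1a2 (72.7 ± 26.01) and Col16a1 (54.7 ± 10.6). In spleen SMP Col18a1 led with 544 ± 143, ahead of Col4a2 (257 ± 73.9), Col4a1 (249 ± 53.01), Col11a2 (182 ± 42.3) and Col1a2 (72.8 ± 50.5).

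Tested directly, 15 of 20 chains differed between SMP and MEP in bone marrow (64.6% of all genes tested) and 12 of 19 in spleen (63.8%), which is close to the share of all genes. In bone marrow 12 of the 15 were higher and 3 lower in SMP (34.4% and 30.3% of all genes), and in spleen 11 of the 12 were higher and 1 lower (33.9% and 29.9%). Col5a1 went the other way in both tissues. It held 4247, 6019 and 3804 counts in bone marrow MEP and 87.2, 300.4 and 72.8 in SMP (log2 difference -5.20 ± 0.51 SE, adjusted p = 3.88e-07), and 4473, 5740.3 and 3166 and 368, 391 and 405 in spleen (log2 difference -3.48 ± 0.46 SE, adjusted p = 1.36e-05). Every MEP library held more than each SMP library of its tissue. Col17a1 (log2 difference -2.04 ± 0.36 SE, adjusted p = 1.07e-04) and Col15a1 (log2 difference -2.88 ± 0.82 SE, adjusted p = 0.00548) were the other 2 chains called higher in bone marrow MEP, and neither was called in spleen.

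The chains higher in SMP in both tissues included type IV and fibril-associated chains. Col4a1 held 168, 60.9 and 280.5 counts in bone marrow MEP and 1045, 1091 and 1034 in SMP (log2 difference 2.88 ± 0.55 SE, adjusted p = 2.29e-04), and 50.2, 58.03 and 58.4 against 2033, 1551 and 1351 in spleen (log2 difference 4.85 ± 0.93 SE, adjusted p = 3.06e-04). Col4a2 moved with it (2.43 ± 0.56 SE, adjusted p = 0.00119 in bone marrow; 4.77 ± 0.67 SE, adjusted p = 2.11e-05 in spleen). Col16a1 was higher by 2.61 ± 0.63 SE in bone marrow and 4.62 ± 0.67 SE in spleen, with adjusted p values of 0.00166 and 2.99e-05. Col22a1 (2.62 and 2.35), Col19a1 (2.27 and 4.13), Col20a1 (1.04 and 2.09), Col11a2 (0.98 and 1.83), Col1a2 (1.76 and 2.26) and Col18a1 (2.16 and 3.29) were called higher in SMP in bone marrow and spleen alike, and Col1a1 was called in bone marrow alone (log2 difference 3.31 ± 0.71 SE, adjusted p = 6.20e-04). Among the 9 fibril-associated chains, 4 of 5 tested were higher in SMP in bone marrow and 6 of 6 in spleen. The marker lists matched the sorts, with 5 of 5 MEP and erythroid markers lower in SMP and, of the 6 stem and myeloid progenitor markers, 5 higher in bone marrow and 6 in spleen. Of the endothelium markers, 6 of 8 in bone marrow SMP and 5 of 7 tested in spleen SMP were also higher than in MEP. Several of these, such as Esam and Tek, are known from blood stem cells too. Markers of mesenchymal stroma and bone summed to 160 to 346 in bone marrow MEP and 1408 to 2597 in SMP, and to 92.1 to 274 and 2216 to 2550.3 in spleen. Pdgfrb was called higher in SMP of both tissues, and Tcf21 and Ccl19 were at 0 in all libraries of these 4 groups. The sums rest on few of the 12 genes: in SMP 7 were under 10 in all libraries in bone marrow and 9 in spleen. These included Pdgfra in both tissues and Cxcl12 in spleen. In MEP 7 and 8 were under 10. The 5 megakaryocyte markers summed to 926 to 1241 in MEP and 6086 to 6965 in SMP of bone marrow. In spleen the sums were 714 to 948 and 4345 to 5822, and 3 were called higher in SMP in each tissue. By these sums the megakaryocyte list was lower in MEP, against the name of that population. The part of all these marker lists in the result was not tested.

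Between spleen and bone marrow, the sorted cells of young WT mice differed in few chains. In MEP 0 of 19 chains tested were called (limma; 3 at an unadjusted p under 0.05), where 0% of all genes were. In SMP 2 of 22 were called, 1 higher and 1 lower in spleen (0.375% of all genes, 0.276% higher and 0.0986% lower). Col18a1 was higher in spleen SMP, with 1828, 2888 and 3106 counts against 199, 227 and 144 (log2 difference 3.76 ± 0.45 SE, adjusted p = 0.00118), and Col1a1 was lower, with 8.17, 11.4 and 22.3 against 306, 88.4 and 504 (log2 difference -4.12 ± 0.65 SE, adjusted p = 0.0106). Neither gene overlapped between the tissues, although Col1a1 lost its call without bone marrow replicate 1 or 3 or spleen replicate 2 (adjusted p 0.0788, 0.0935 and 0.0593), and the Col1a1 level of bone marrow SMP was much lower in the older WT mice, at 6.202 and 20.04.

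Col4a1 and Col4a2 are transcribed away from each other from 1 stretch of chromosome 8, so their start regions are shown together. Both chains were called in the same direction between SMP and MEP and, in spleen SMP, in crisis. The sequences are RefSeq's windows from 250 bases before to 50 bases after the start (build GRCm38.p6), written 5′ to 3′ on each gene's own strand. Capitals mark the 78 bases that the windows share, chr8:11312777-11312854, written on opposite strands.
Col4a2, chr8:11312555-11312854, plus strand: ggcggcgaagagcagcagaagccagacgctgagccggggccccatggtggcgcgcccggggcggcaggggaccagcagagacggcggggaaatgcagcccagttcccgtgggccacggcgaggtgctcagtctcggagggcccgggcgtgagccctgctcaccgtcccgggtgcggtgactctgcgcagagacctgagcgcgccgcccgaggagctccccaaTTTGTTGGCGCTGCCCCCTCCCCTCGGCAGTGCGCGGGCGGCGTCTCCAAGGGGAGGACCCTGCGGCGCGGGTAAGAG
Col4a1, chr8:11312777-11313076, minus strand: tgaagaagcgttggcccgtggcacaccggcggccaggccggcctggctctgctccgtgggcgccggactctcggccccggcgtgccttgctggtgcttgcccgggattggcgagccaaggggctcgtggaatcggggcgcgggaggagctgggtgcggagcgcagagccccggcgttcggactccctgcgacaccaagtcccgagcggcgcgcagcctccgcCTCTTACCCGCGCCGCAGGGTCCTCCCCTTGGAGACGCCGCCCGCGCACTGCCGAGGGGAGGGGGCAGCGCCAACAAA
RefSeq windows were found for 35 of the 44 chains. Searched on both strands, the CCAAT box (letters CCAAT) had 1 match in each of the 2 windows, where 37.4% of 32817 promoter windows hold it. The GC box core GGGCGG had 1 match in the Col4a1 window and 3 in the Col4a2 window, where 35.6% of windows hold it. The letters GATAA, part of the motif of GATA factors, were in neither window, nor in that of Col5a1, where 25.4% of windows hold them. A match is a description of the letters only, and the part of the shared stretch in the levels of the 2 chains was not tested.

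Partner chains of 1 collagen are needed in fixed proportion, which is not always an equal one. Their levels were compared per kb, and the ratios were not set against the proportion in the protein. In whole bone marrow the ratio of Col1a1 to Col1a2 lay between 1.09 and 1.36 in all 11 libraries (median 1.19), including those with low type I collagen. It was 0.444 to 1.53 in whole spleen (median 0.758). In sorted cells Col1a2 exceeded Col1a1 in all but 1 library, a crisis spleen MEP with a ratio of 1.02, with median ratios of 0.154 and 0.332 in MEP of marrow and spleen and 0.114 and 0.0577 in SMP, over the libraries in which both reached 10 counts. Col4a1 to Col4a2 was narrow in SMP, 0.737 to 0.947 in bone marrow (median 0.813) and 0.610 to 1.03 in spleen (median 0.852). Whole tissue had more Col4a1 than Col4a2 in most libraries, with medians of 1.51 in marrow and 1.45 in spleen. Col6a1 and Col6a2 of type VI collagen stood at a median ratio of 1.003 in whole marrow (0.782 to 1.39), and in no sorted library did both reach 10.

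**Figure D2:**
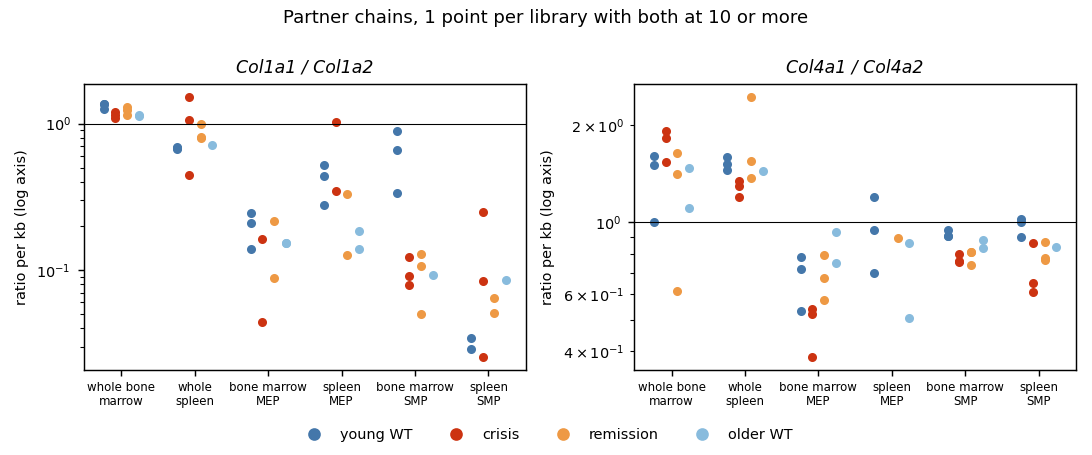
Ratio of partner chains per kb of transcript in each library in which both chains held at least 10 counts, on a log axis, for Col1a1 over Col1a2 (left) and Col4a1 over Col4a2 (right), by population and state. The left panel runs from near 1.19 in whole bone marrow to medians of 0.0577 to 0.332 in sorted cells, and the right panel stays between 0.385 and 2.45 throughout.

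Crisis was compared with young WT of the same ages to ask how the chains differ at the anemic stage. The number of chains that reached 10 counts in all 3 crisis libraries was 36 in whole marrow and 27 in whole spleen. It was 12 and 7 in MEP of marrow and spleen and 17 and 11 in SMP, fewer than in young WT in each sorted population. The share of all genes that did so was also lower, at 49.6 and 46.8% in MEP and 54.03 and 51.5% in SMP, against 51.1, 49.0, 54.3 and 54.1% in young WT. In whole bone marrow 2 of 38 chains tested were called, both lower, where 8.52% of all genes were, 5.03% as lower. Col7a1, the chain of anchoring fibrils, held 211, 205 and 259.8 counts in young WT and 129.9, 94.4 and 50.1 in crisis (log2 difference -1.39 ± 0.32 SE, adjusted p = 0.0343), with no overlap. Col27a1, a fibrillar chain of cartilage, held 1438, 1629 and 1203 and 998, 169 and 184 (log2 difference -2.16 ± 0.59 SE, adjusted p = 0.0497), again with no overlap, though crisis replicate 1 was close to the WT range. Both calls depended on the setting: of 15 alternatives, Col7a1 lost its call in 10 and Col27a1 in 13. Without mice 2726 and 27265 Col27a1 had an adjusted p of 0.0579 (log2 difference -2.16), and without the whole tissue of mice 2658, 2726 and 27265 the values were 0.175 for Col27a1 and 0.107 for Col7a1. Col5a3 had the same shape, 3424, 4114 and 3083 against 1764, 150.1 and 146, and missed the threshold (log2 difference -3.37 ± 0.92 SE, adjusted p = 0.0543). It is named after its values were seen, and it passed in 1 of 15 alternatives, without crisis replicate 1 (log2 difference -4.56, adjusted p = 0.000405). The sum of 9 mature blood markers was 84198 to 97024 in young WT marrow and 43646 to 60992 in crisis, with 2 called lower and 1 higher. MEP and erythroid markers summed to 88113 to 102683 and 210517 to 330808 (2 of 5 called higher), megakaryocyte markers to 5201 to 7988 and 3428 to 4649 and smooth muscle markers to 575 to 712 and 281 to 521 (none called). The part of these markers in the results was not tested. Without crisis replicate 1 there were 3 chains called, and without any other 1 of the crisis and young WT libraries 0.

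The abundant matrix chains of marrow were not called in crisis. Col1a1 stood at 8097, 113517 and 35701 counts in young WT and 82726, 40610.4 and 25554 in crisis (log2 difference 0.46 ± 1.33 SE, adjusted p = 0.87). Col1a2 (0.67 ± 1.30 SE), Col3a1 (0.89 ± 1.53 SE), Col4a1 (1.08 ± 1.11 SE), Col4a2 (0.70 ± 0.77 SE), Col5a1 (0.49 ± 0.38 SE), Col5a2 (0.73 ± 1.34 SE), Col6a1 (0.53 ± 1.21 SE), Col6a2 (0.23 ± 1.25 SE), Col6a3 (0.82 ± 1.22 SE) and Col18a1 (0.53 ± 0.90 SE) had log2 differences above 0 and were not called either. For 8 of the 11 the sign rests on young WT replicate 1: without the whole-tissue libraries of mice 2658, 2726 and 27265 the difference was -0.53 for Col1a1, -0.34 for Col1a2, -0.31 for Col3a1, -0.05 for Col4a2, -0.35 for Col5a2, -0.41 for Col6a1, -0.59 for Col6a2 and -0.16 for Col18a1. Col6a2 was also below 0 without crisis replicate 1 (-0.11). Col4a1, Col5a1 and Col6a3 stayed above 0 in all 15 alternatives. The median over the 38 chains was 0.38, against 0.01 over all genes tested.

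In whole spleen 7 of 33 chains tested were called, all lower in crisis, where 15.2% of all genes were called and 12.5% were called lower. Col14a1 held 2474, 4530.0 and 4821 counts in young WT and 548, 865 and 374 in crisis, with no overlap (log2 difference -2.75 ± 0.45 SE, adjusted p = 0.0218; 6.72-fold lower on that scale). Col6a4 held 1216, 1016 and 1227 and 88.3, 270.1 and 143, again apart (log2 difference -2.92 ± 0.80 SE, adjusted p = 0.0413). The fibrillar chains Col27a1 (log2 difference -3.58 ± 0.71 SE, adjusted p = 0.0224), Col5a3 (log2 difference -3.38 ± 0.70 SE, adjusted p = 0.0228) and Col11a2 (log2 difference -2.02 ± 0.46 SE, adjusted p = 0.0262) fell as well. So did the fibril-associated chains Col19a1 (log2 difference -3.99 ± 0.82 SE, adjusted p = 0.0227) and Col20a1 (log2 difference -2.203 ± 0.59 SE, adjusted p = 0.0388). Of the 33 chains tested, 15 did not overlap between the groups, as 58.2% of all genes did not. By library, Col5a3 held 502, 672 and 463 counts in young WT and 147, 14.7 and 58.6 in crisis, and Col19a1 held 33.7, 25.5 and 15.8 and 2.83, 0 and 0.

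Sums of mature blood markers and of MEP and erythroid markers moved in whole spleen at the same time. The 9 mature blood markers, with 5 of them called lower and none higher, summed to 69952 to 80524 in young WT and 10322 to 12597 in crisis. The 5 MEP and erythroid markers summed to 138843 to 169029 and 540453 to 670050, with none of the 5 called. The 12 markers of mesenchymal stroma and bone, of which 8 were tested and 1 was called lower, summed to 509 to 1807 and 520 to 708. These ranges overlapped, as did those of the 8 endothelium markers, 2088 to 4445 and 2663 to 3835. Ibsp, Sp7, Bglap and Adipoq were at 0 in all 3 crisis spleens, and already under 10 in each young WT spleen. The part of these cells in the fall of the 7 chains was not tested. Without crisis replicate 1 there were 3 chains called, and without any other 1 of the crisis and young WT libraries 0. Each of the 7 chains lost its call in 5 to 9 of the 12 to 15 alternatives. Without mice 2726 and 27265 there were 13, and with only the 2 groups in the fit 12.

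Not all spleen chains fell. Col5a1 held 2004, 1875 and 1665 counts in young WT and 4545, 4504 and 2980.4 in crisis, with no overlap, and was not called in the fit of all states (log2 difference 1.10 ± 0.76 SE, adjusted p = 0.308). Without mice 2726 and 27265 it passed (1.10, adjusted p = 0.000631). Col18a1 was alike, 135, 85.01 and 156 against 295, 223 and 592 (log2 difference 1.47 ± 0.56 SE, adjusted p = 0.098; 1.47, adjusted p = 0.0119 without those mice). The remaining chains fixed for description were not called: Col1a1 (-0.02 ± 1.29 SE), Col1a2 (-0.42 ± 1.23 SE), Col3a1 (-0.92 ± 1.36 SE), Col4a1 (0.63 ± 1.06 SE), Col4a2 (0.88 ± 1.14 SE), Col5a2 (-0.52 ± 1.47 SE), Col6a1 (0.96 ± 1.12 SE), Col6a2 (1.27 ± 1.29 SE) and Col6a3 (0.35 ± 1.39 SE). Their standard errors are wide, and young WT replicate 1 is low: Col3a1 held 79.2, 1326 and 1494 counts in young WT and 671, 322 and 109 in crisis, so the groups overlapped. Without the whole tissue of mice 2658, 2726 and 27265, Col4a1 turned to -0.68, Col4a2 to -0.40, Col6a1 to -0.22 and Col6a3 to -1.02.

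**Figure D3:**
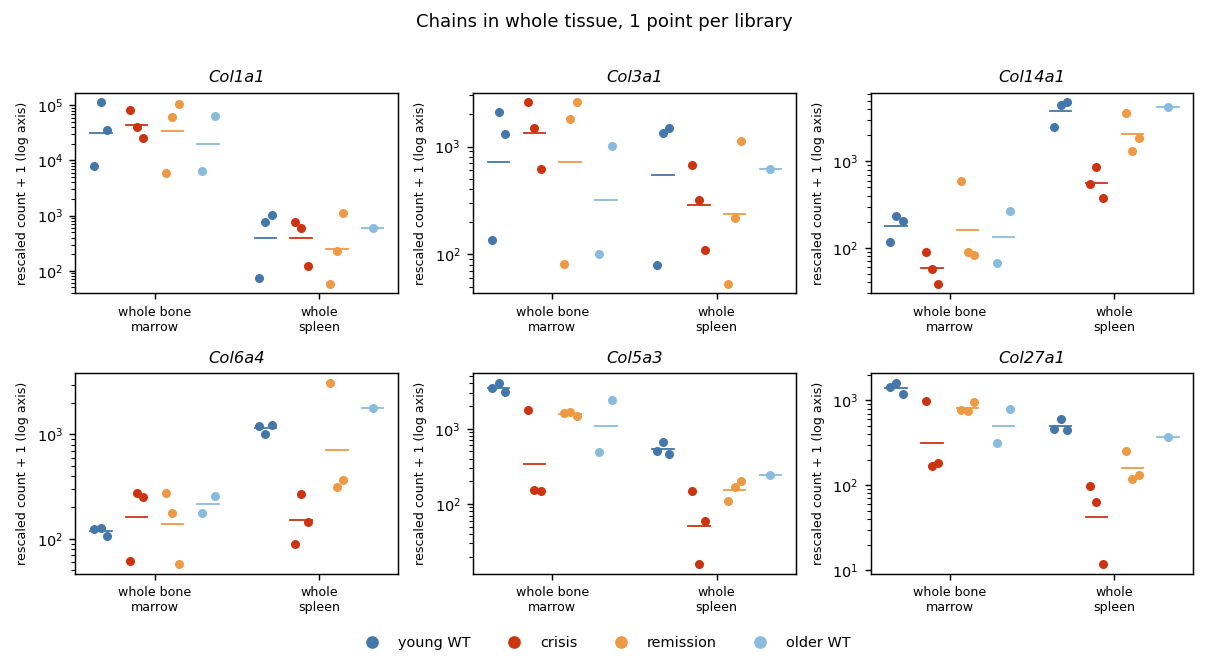
Rescaled count + 1 of 6 chains in whole bone marrow and whole spleen, on a log axis, with 1 point per library, colour for state and a bar at the geometric mean of each group. Col14a1 and Col6a4 are higher in young WT spleen than in marrow and lower in the crisis spleens, while Col1a1 and Col3a1 spread widely among the young WT libraries of both tissues.

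In MEP no chain was called in crisis. In bone marrow MEP 0 of 19 passed (limma; 8 at an unadjusted p under 0.05), where 0.00689% of all genes were called, and in spleen MEP 0 of 18 (8 at an unadjusted p under 0.05), where 0.036% were. Col5a1, the leading chain of MEP, held 4247, 6019 and 3804 counts in young WT and 4682, 3729.5 and 5566 in crisis in bone marrow (-0.00 ± 0.25 SE), and 4473, 5740.3 and 3166 and 4098, 3890.4 and 5649 in spleen (0.05 ± 0.25 SE). Its groups overlapped in both tissues. The type IV chains were lower in every crisis library of spleen MEP than in any young WT one: Col4a2 held 51.6, 47.4 and 81.5 and 12.8, 4.102 and 2.98 (log2 difference -3.18 ± 0.80 SE, adjusted p = 0.14), and Col4a1 held 50.2, 58.03 and 58.4 and 0, 12.2 and 11.6 (log2 difference -3.36 ± 1.15 SE, adjusted p = 0.181). Col4a2 passed with the deposited values left unscaled (-2.96, adjusted p = 0.00759) and without mice 2726 and 27265 (-3.18, adjusted p = 0.0498). In bone marrow MEP the differences were -1.59 ± 0.68 SE for Col4a2 (adjusted p = 0.381) and -2.05 ± 0.68 SE for Col4a1 (adjusted p = 0.33).

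Other fixed chains of MEP stayed near 0 or were uncertain. Col1a1 differed by -0.86 ± 0.76 SE in bone marrow and -0.39 ± 0.93 SE in spleen, and Col1a2 by 0.66 ± 0.57 SE and -0.16 ± 0.51 SE. Col18a1 differed by 1.36 ± 1.06 SE and 1.60 ± 0.90 SE, with crisis libraries at 620.0, 394 and 1958 counts in spleen against 419, 649 and 62.6. Col28a1, a chain with few counts, was named after its values were seen: crisis replicate 2 held 114 counts in bone marrow MEP and 142 in spleen MEP, where the young WT libraries held 1.25 to 1.57 and 0 to 15.6. The same mouse held 117 counts in spleen SMP, against 3.16 to 4.93 in young WT, while crisis replicates 1 and 3 held less in each of these populations.

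In bone marrow SMP 3 of 21 chains tested were called, 1 higher and 2 lower, where 7.62% of all genes were (3.8% higher and 3.82% lower). Col5a1 held 87.2, 300.4 and 72.8 counts in young WT and 493, 609 and 1689.7 in crisis (log2 difference 2.67 ± 0.59 SE, adjusted p = 0.0294; 6.38-fold higher). No library of the groups overlapped. The 3 remission libraries, from older mice, held 189, 119.9 and 132, a difference from crisis that was not called. Col16a1 held 346, 237 and 272 and 118, 105 and 79.7 (log2 difference -1.49 ± 0.31 SE, adjusted p = 0.025). Col1a1 held 306, 88.4 and 504 and 39.5, 25.5 and 45.1 (log2 difference -2.71 ± 0.61 SE, adjusted p = 0.0277), but the remission libraries at 15.9, 30.3 and 26.8 and the older WT libraries at 6.202 and 20.04 were as low as crisis. Without crisis replicate 1 there were 7 chains called, without young WT replicate 2 there were 2, and without any other 1 of these 6 libraries 0.

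Of the chains that were not called in bone marrow SMP, Col18a1 came closest, with 199, 227 and 144 counts in young WT and 411, 295 and 597 in crisis (log2 difference 1.15 ± 0.38 SE, adjusted p = 0.0823). It passed without mice 2726 and 27265 (adjusted p = 0.0433) and with young and older WT in 1 group (1.37, adjusted p = 0.0306). Col4a1 held 1045, 1091 and 1034 and 427, 896 and 688 (log2 difference -0.72 ± 0.27 SE, adjusted p = 0.121), and Col4a2 differed by -0.47 ± 0.28 SE. Col1a2, the partner of Col1a1, differed by -0.14 ± 0.33 SE. The 5 MEP and erythroid markers were all called higher in crisis in this gate, with sums of 9641 to 12150 in young WT and 30838 to 48014 in crisis. Of the 8 endothelium markers 2 were called lower, Emcn and Tek, with sums of 7028 to 7695 and 3912 to 6192. The part of both in the differences of Col5a1, Col16a1 and the type IV chains was not tested.

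Spleen SMP had the largest number of chains called in crisis among the 6 populations, 12 of 22 tested, 1 higher and 11 lower. Of all genes tested 31.8% were called there, 16.6% higher and 15.1% lower. The groups did not overlap for 13 of the 22 chains, as for 50.9% of all genes. The median log2 difference was -1.40 over the 22 chains and -0.04 over all genes. Col5a1 held 368, 391 and 405 counts in young WT and 1453, 3776 and 3630.3 in crisis (log2 difference 2.80 ± 0.54 SE, adjusted p = 0.0217; 6.97-fold higher), with no overlap. Remission libraries held 367, 1768 and 491, with 1 inside the crisis range.

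Both type IV chains fell in spleen SMP. Col4a1 held 2033, 1551 and 1351 counts in young WT and 571, 191 and 377 in crisis (log2 difference -2.23 ± 0.45 SE, adjusted p = 0.0217; 4.68-fold lower). Col4a2 held 2195, 1506 and 1281 and 643, 287 and 603 (log2 difference -1.75 ± 0.41 SE, adjusted p = 0.0219). The groups did not overlap for either chain, and 2 of the 3 remission libraries lay in the young WT range for both, at 1519, 569 and 1447 counts of Col4a1 and 1936, 716 and 1625 of Col4a2. Of the 7 fibril-associated chains tested, 5 fell. Col16a1 held 399, 257 and 144 and 57.3, 51.6 and 46.7 (log2 difference -2.23 ± 0.38 SE, adjusted p = 0.0217), Col19a1 differed by -3.57 ± 0.81 SE, adjusted p = 0.0217, and Col9a3, a type IX chain whose exons overlap Tcfl5 on the other strand over 6.07% of its exonic bases, by -2.58 ± 0.63 SE, adjusted p = 0.0226. Col20a1 (-1.56 ± 0.39 SE, adjusted p = 0.0227) and Col22a1 (-1.52 ± 0.51 SE, adjusted p = 0.0458) were the other two.

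The fibrillar chains of spleen SMP were split. Besides the rise of Col5a1, Col11a2 (-1.31 ± 0.36 SE, adjusted p = 0.0264) and Col27a1 (-2.35 ± 0.74 SE, adjusted p = 0.0378) fell, and the type I chains were not called (Col1a1 0.71 ± 0.66 SE; Col1a2 -0.46 ± 0.49 SE). Col17a1 (-1.58 ± 0.51 SE, adjusted p = 0.04) and Col26a1 (-1.39 ± 0.48 SE, adjusted p = 0.0483) also fell. Col22a1 and Col26a1 rank beyond the 10 smallest adjusted p values and are named to complete the list of 12. Col18a1, the leading chain of this population, was not called, with 1828, 2888 and 3106 counts in young WT and 2057, 1428 and 5185 in crisis (-0.04 ± 0.44 SE). Its groups overlapped, and crisis replicate 3 held the highest count of all.

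With the authors' rlog values in place of counts, limma called 0 chains in crisis in each of the 6 populations (at an unadjusted p under 0.05, 13 in SMP of spleen, 7 in SMP of marrow, 15 in whole spleen and 4 in whole marrow) and 0 to 138 of all genes. The calls in spleen SMP rest on 3 mice a group. Without crisis replicate 1, 2 or 3 there were 12, 3 and 7 chains called. Without any 1 of the 3 young WT libraries 0 were called by limma, with 12 or 13 at an unadjusted p under 0.05, and then 0 to 2 of all genes were called. The sorted cells also differed in markers. The 5 MEP and erythroid markers were all called higher, with sums of 14270 to 18523 in young WT and 52572 to 131665 in crisis. Of 8 endothelium markers 5 were called lower (Emcn, Kdr, Stab2, Esam and Tek), with sums of 5021 to 7364 and 2845 to 4879 and none of the 8 at 0 in all libraries of a group. Of 6 stem and myeloid progenitor markers 2 were called lower, with sums of 91029 to 126406 and 29361 to 79386. The part of these cells in the chain differences was not tested.

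**Figure D4:**
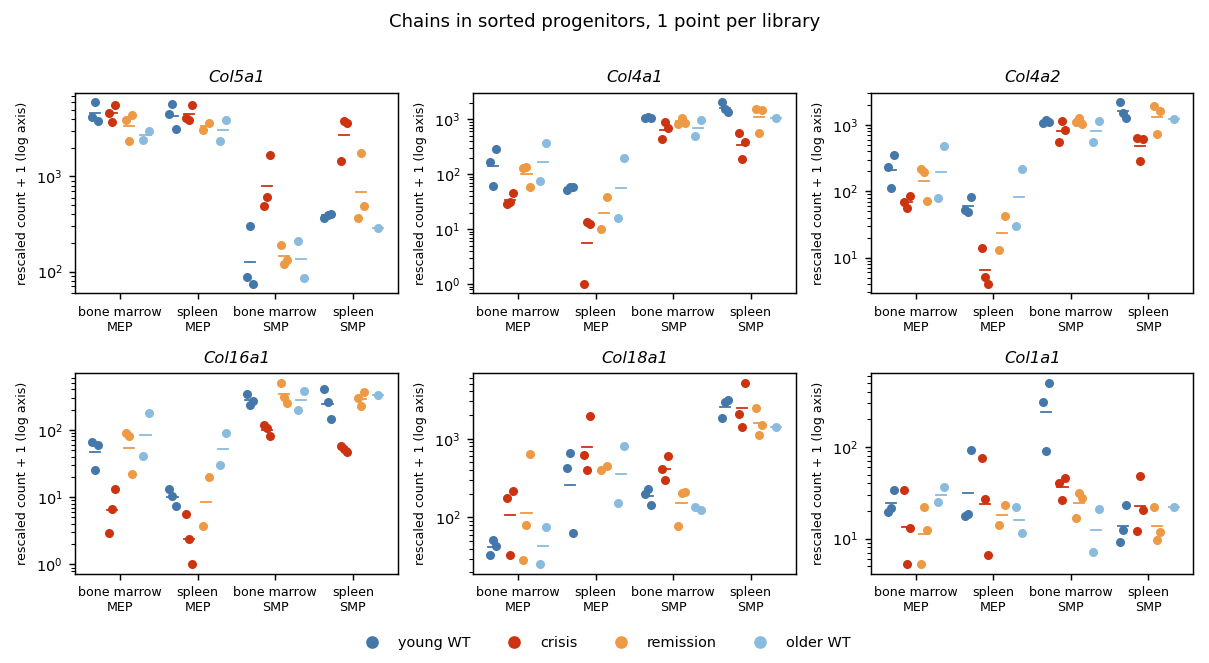
Rescaled count + 1 of 6 chains in MEP and SMP of bone marrow and spleen, on a log axis, with 1 point per library, colour for state and a bar at the geometric mean of each group. Col5a1 is level in MEP and higher in the crisis libraries of both SMP populations, and Col4a1, Col4a2 and Col16a1 are lower in the crisis libraries of spleen SMP.

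Whether the crisis difference itself differed between spleen and bone marrow was tested in 1 fit per cell type. In whole tissue 0 of 41 chains were called (limma; 5 at an unadjusted p under 0.05; 3.46% of all genes called), in MEP 0 of 19 (0 at an unadjusted p under 0.05; 0%) and in SMP 0 of 22 (9 at an unadjusted p under 0.05; 0%). With the mouse as a block, 3 chains passed in whole tissue: Col6a4 (-3.34, adjusted p = 0.0236), Col20a1 (-2.11, adjusted p = 0.0265) and Col8a2 (-4.01, adjusted p = 0.0484), all with the lower difference in spleen. These 3 also passed without mice 2726 and 27265 (adjusted p = 0.00604, 0.0119 and 0.0373). In SMP the block passed Col1a1 (3.42, adjusted p = 0.0485), which was called lower in crisis in bone marrow SMP and not in spleen SMP. Young WT spleen SMP held only 8.17, 11.4 and 22.3 counts of Col1a1, which left little room for a fall. Each was below every crisis library of bone marrow SMP (39.5, 25.5 and 45.1). Young WT bone marrow SMP held 306, 88.4 and 504, a level that older WT, at 6.202 and 20.04, did not share. The tissue difference of Col1a1 was not tested apart from these WT levels. No young WT mouse gave SMP of both tissues, so there the block joins no young WT libraries. These 4 chains are named after their values were seen. The difference for Col4a1, -2.23 in spleen SMP and -0.72 in bone marrow SMP, was not called (difference -1.51 ± 0.56 SE, adjusted p = 0.122), nor was that for Col5a1 (0.13 ± 0.87 SE, adjusted p = 0.934).

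**Figure D5:**
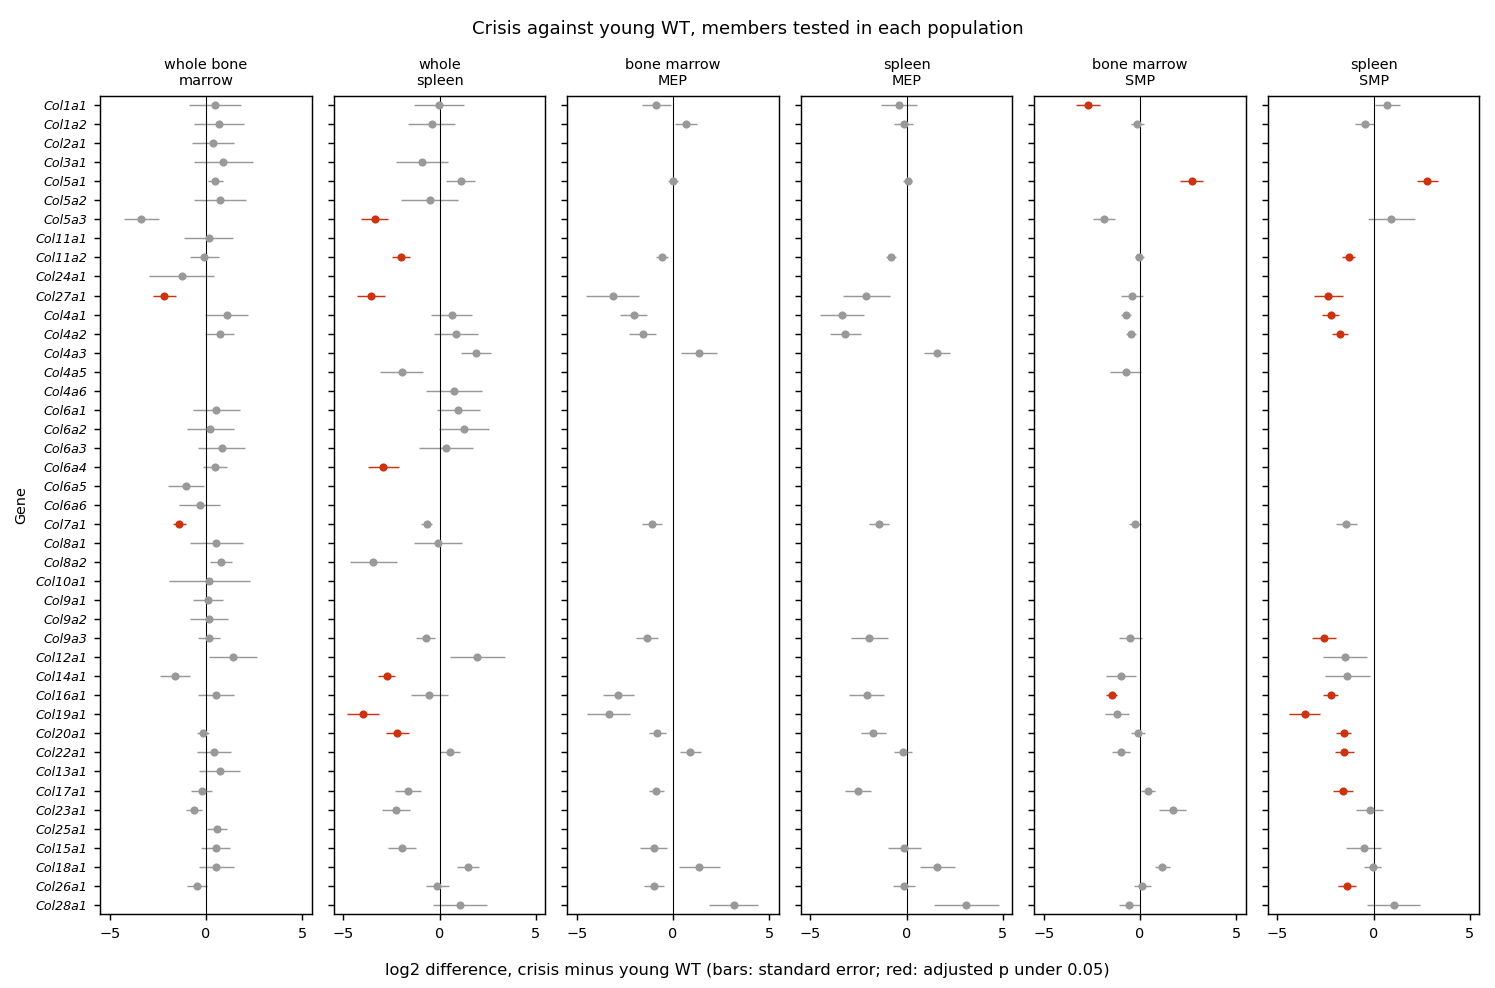
Log2 difference between crisis and young WT for each chain tested in each of the 6 populations, with standard errors as bars and chains called at an adjusted p under 0.05 in red. Red points lie left of 0 in whole tissue (2 in marrow, 7 in spleen), are absent in MEP, and in SMP include Col5a1 to the right (1 of 3 in bone marrow, 1 of 12 in spleen).

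Remission was compared with crisis to ask which chains changed on partial recovery, with age differing as well. Of the 6 populations only bone marrow SMP had a chain called, 1 of 21, which was higher in remission (1.25% of all genes, 0.831% as higher). There, Col16a1 held 118, 105 and 79.7 counts in crisis and 507, 308 and 251 in remission (log2 difference 1.76 ± 0.31 SE, adjusted p = 0.0323). No group overlap was seen, and the remission libraries were within or above the young WT range of 237 to 346. Without mice 2726 and 27265 it was no longer called (1.47, adjusted p = 0.118), and of 13 alternatives it lost its call in 7. In the other 5 populations limma called 0 chains, with 3 in whole marrow, 7 in whole spleen, 6 and 0 in MEP of marrow and spleen and 7 in SMP of spleen at an unadjusted p under 0.05, and 0 to 0.00689% of all genes were called. Without crisis replicate 1 the count was 8 in spleen SMP, 7 in bone marrow SMP and 2 in whole marrow.

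Several chains that were called in crisis had remission values on the young WT side without passing the test. In spleen SMP, Col16a1 held 301, 227 and 364 counts in remission against 57.3, 51.6 and 46.7 in crisis (2.47 ± 0.38 SE, adjusted p = 0.197), and the groups did not overlap. Col14a1 in whole spleen held 3665, 1302 and 1854 in remission against 548, 865 and 374 (1.88 ± 0.45 SE, adjusted p = 0.132), of which the first is the spleen labelled remission of mouse 2726. Col6a4 shows that mouse more clearly, with 3150.3, 311 and 367 counts, the first above each young WT spleen. Col5a1 in bone marrow SMP held 493, 609 and 1689.7 counts in crisis and 189, 119.9 and 132 in remission, which missed the threshold (-2.46 ± 0.59 SE, adjusted p = 0.0637).

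Genes that act on collagens were counted from fixed lists, all in crisis against young WT. Of 30 genes for collagen synthesis and processing, 28 were tested in whole marrow with 1 lower, Colgalt1, which glycosylates collagens (log2 difference -1.36 ± 0.30 SE, adjusted p = 0.0314). Of all genes tested there, 8.52% were called and 5.03% were called lower. In whole spleen 2 of 27 were higher and 3 lower, where 15.2% of all genes were called. The higher ones were the crosslinking enzyme Loxl2 (log2 difference 5.29 ± 1.21 SE, adjusted p = 0.0264) and the procollagen protease Adamts3 (log2 difference 1.70 ± 0.49 SE, adjusted p = 0.0484), and the lower ones its relative Adamts14 (log2 difference -3.63 ± 0.67 SE, adjusted p = 0.0218), the prolyl hydroxylase subunit P4ha1 (log2 difference -0.97 ± 0.21 SE, adjusted p = 0.0235) and Colgalt1 (log2 difference -0.87 ± 0.21 SE, adjusted p = 0.0301). In bone marrow SMP 1 of 22 was called, where 7.62% of all genes were called and 3.82% were called lower. It was the prolyl hydroxylase P3h3, which was lower (log2 difference -0.80 ± 0.19 SE, adjusted p = 0.0315).

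In spleen SMP, 2 of 23 synthesis genes were higher and 4 lower, where 16.6% of all genes were called higher and 15.1% lower. The general folding enzymes P4hb (log2 difference 0.62 ± 0.16 SE, adjusted p = 0.0241) and Ppib (log2 difference 0.88 ± 0.22 SE, adjusted p = 0.0227) were higher. The collagen chaperone Serpinh1 (log2 difference -2.02 ± 0.59 SE, adjusted p = 0.0309), the isomerase Fkbp10 (log2 difference -2.39 ± 0.69 SE, adjusted p = 0.0301), the processing enhancer Pcolce (log2 difference -1.43 ± 0.36 SE, adjusted p = 0.023) and P3h3 (log2 difference -1.48 ± 0.42 SE, adjusted p = 0.0285) were lower. Of 11 other matrix genes tested there, 5 were lower and none higher: Sparc (log2 difference -3.00 ± 0.68 SE, adjusted p = 0.0217), a collagen-binding matrix protein, Bgn (-2.57), Postn (-2.91), Hspg2, the perlecan of basement membranes (-2.27), and Fbn1 (-2.198). Of 6 genes for collagen breakdown tested, 1 was lower, the protease inhibitor Timp2 (log2 difference -1.75 ± 0.34 SE, adjusted p = 0.0217).

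Among 11 collagen receptors, the integrin subunit Itgb1 was higher in crisis in whole marrow (log2 difference 0.56 ± 0.13 SE, adjusted p = 0.0361) and in spleen SMP (log2 difference 0.72 ± 0.19 SE, adjusted p = 0.0245). Adgrg1, an adhesion receptor that binds type III collagen, was lower in the same 2 populations (-1.37, adjusted p = 0.0288; -1.33, adjusted p = 0.0288). The inhibitory receptor Lair1 was lower in spleen SMP (log2 difference -0.77 ± 0.24 SE, adjusted p = 0.0349), the integrin subunit Itga10 in whole spleen (log2 difference -1.49 ± 0.41 SE, adjusted p = 0.0417), and the receptor kinase Ddr1 was higher in bone marrow SMP (log2 difference 1.72 ± 0.35 SE, adjusted p = 0.0241). In whole marrow, the matrix proteoglycan Vcan was higher (log2 difference 3.55 ± 0.60 SE, adjusted p = 0.0247) and the laminin chain Lamc1 lower (log2 difference -0.90 ± 0.24 SE, adjusted p = 0.0469) among 19 other matrix genes, and in bone marrow SMP Postn was lower (log2 difference -2.29 ± 0.42 SE, adjusted p = 0.0215) among 11.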

How the data were processed

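The authors deposited normalised counts, a signal per gene and library, and a table of regularised log2 (rlog) values, for 64 libraries of 18 mice. Per the submitters' processing notes Bowtie2 2.2.0, RSEM, DESeq2 and GRCm38 were used. Their order and whether counting used strand are not given in the sources used here. RSEM shares reads among similar transcripts, and 13 collagen genes share exonic bases with another gene.

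Of 26286 identifiers 25607 were matched to GENCODE M21 symbols, which gave the 44 collagen genes, all of which are in both tables. All 64 libraries, the unassigned whole spleen included, were divided by their median ratio to the geometric mean, within and then between populations (log2 divisors -0.64 to 0.75). limma 3.58.1 (R 4.3.3; trend and robust) was fitted to log2(value + 1) with 1 mean per state, for genes with a mean of at least 10, with a two-sided test and Benjamini-Hochberg adjustment over all genes at 0.05. The fit was tested on simulated data. Levels per kb used the longest principal transcript of a gene. Detection used rescaled counts, and shares of a library used the deposited counts. Where a group holds 1 library it was assumed to vary like the others.

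There are 22 comparisons. The genes, lists and tests were chosen with earlier results of these data known. Genes named by rule are those called (up to 10 per comparison), the 5 highest per kb in each young WT population, 11 fixed chains in crisis, Rasa3 and up to 4 called genes per further list. Other called genes are named to complete a list or a direction, such as Col19a1 in SMP against whole marrow and Col16a1 in SMP against whole spleen. Not all of these were followed over the alternatives. Some populations share mice, and the correlation between libraries of a mouse was 0.05 to 0.54. The alternatives were values without rescaling, a pseudocount of 10, no filter, rlog values, left-out libraries or mice, other groups in the fit, the mouse as a block and, chosen after seeing the data, a term for 15 libraries whose low values have 1 step size and the omission of 3 mice.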

Additional observations from a re-analysis of the deposited data

Results flagged for a closer look

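For mouse 27265 the labels of the whole spleen library differ from each other on the state of the animal, and the library entered no comparison. In it Col5a1 held 2277 rescaled counts, above each of the 4 WT whole spleens (825 to 2004) and below the 3 crisis spleens (2980 to 4545). Col4a3 held 16.9, above the WT spleens (2.87 to 9.01) and within the crisis range of 15.5 to 26.7, a level that rests on a few reads. Its Col1a1, at 65.9, was below both the WT range (74.8 to 1037) and the crisis range (121 to 783). These are values of 1 library that is a replicate of no group.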

How the results depend on the processing

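Of the 22 counts of chains called, 7 stayed within 1.5 times the reported count under every alternative run, among them SMP against MEP and SMP against whole tissue in both tissues. Leaving out 1 library at a time gave, for crisis against young WT, 0 to 3 chains in whole marrow, 0 to 3 in whole spleen, 0 to 1 in bone marrow MEP, 0 to 0 in spleen MEP, 0 to 7 in bone marrow SMP and 0 to 12 in spleen SMP. For remission against crisis it gave 0 to 2 in whole marrow, 0 to 0 in whole spleen, 0 to 1 in bone marrow MEP, 0 to 7 in bone marrow SMP and 0 to 8 in spleen SMP. For the difference between the tissues' crisis effects it gave 0 to 1 in whole tissue and 0 to 9 in SMP. For spleen against marrow of young WT mice it gave 8 to 13 in whole tissue and 1 to 3 in SMP. Where a group is left with 2 libraries the fits have little room, and in spleen SMP the count over all genes fell with that of the chains (0 to 6381 genes).

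Other settings moved these crisis counts. In whole marrow 0 chains were called with unscaled values, rlog values, only the 2 groups in the fit, young and older WT together, or without the whole tissue of mice 2658, 2726 and 27265, and 1 with no filter or with the step-size term. In whole spleen 0 were called with rlog values or the step-size term, 13 without mice 2726 and 27265, 12 with only the 2 groups and 11 with young and older WT together. In spleen MEP 2 were called with unscaled values, and 1 without those 2 mice or with young and older WT together. In bone marrow SMP 0 were called with rlog values and 1 with only the 2 groups, and in spleen SMP 0 with rlog values. In bone marrow SMP, remission against crisis gave 3 with unscaled values, 2 with the step-size term, and 0 with rlog values, without the 2 mice or with only the 2 groups. In whole spleen it gave 1 without the whole tissue of the 3 mice. The tissue difference in whole tissue gave 4 without the 2 mice and 2 without the whole tissue of the 3 mice. With the mouse as replicate block that difference had 3 chains in whole tissue and 1 in SMP, and the block moved no other count by more than 1.5 times. The cause of these moves was not tested. The step-size term could not be fitted in spleen SMP.

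Of 123 values of single chains, 22 changed sign under some alternative, and all 22 belong to chains that were not called. Without the whole tissue of mice 2658, 2726 and 27265 the whole marrow differences in crisis were -0.53 for Col1a1, -0.34 for Col1a2, -0.31 for Col3a1, -0.0527 for Col4a2, -0.35 for Col5a2, -0.41 for Col6a1, -0.59 for Col6a2 and -0.16 for Col18a1. In whole spleen they were -0.68 for Col4a1, -0.40 for Col4a2, -0.22 for Col6a1 and -1.02 for Col6a3, and the step-size term gave the same 4 values. With young and older WT together, Col1a2 in bone marrow SMP was 0.0807, Col5a1 in bone marrow MEP 0.31 and Col18a1 in spleen SMP 0.17, and with unscaled values Col1a2 in spleen MEP was 0.0383.
Leaving out 1 library at a time, the ranges in whole marrow were -0.53 to 1.38 for Col1a1, -0.34 to 1.56 for Col1a2, -0.31 to 1.67 for Col3a1, -0.0527 to 1.28 for Col4a2, -0.35 to 1.63 for Col5a2, -0.41 to 1.26 for Col6a1, -0.59 to 0.92 for Col6a2 and -0.16 to 0.99 for Col18a1. In whole spleen they were -1.21 to 0.81 for Col1a1, -1.62 to 0.27 for Col1a2, -0.68 to 1.40 for Col4a1, -0.40 to 1.64 for Col4a2, -1.85 to 0.32 for Col5a2, -0.22 to 1.75 for Col6a1 and -1.02 to 1.195 for Col6a3. In MEP they were -0.14 to 0.19 for Col5a1 in bone marrow and, in spleen, -0.18 to 0.25 for Col5a1, -1.22 to 0.53 for Col1a1 and -0.60 to 0.44 for Col1a2. In SMP they were -0.46 to 0.0947 for Col1a2 in bone marrow and, in spleen, -0.93 to 0.0656 for Col1a2 and -0.57 to 0.36 for Col18a1. Chains under 10 counts in every group rest on a few reads. The filter left them out of the main fits, so no difference in them was tested there.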
